A study of Mus musculus with 16 samples.

Results

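The baseline transcript profile of the control heart was read from 4 littermate control arrays out of 16 arrays in the series, chosen by their labels alone. The control hearts came from male mice that served as littermates of transgenic animals, and the series text calls them wild type. Each heart gave 1 single-colour Illumina bead array, on which the signal of 25697 probes was measured in total RNA labelled as heart left ventricle. The other 12 arrays are hearts of Myh6-TRAF2LC, Myh6-IκBαΔN and double transgenic mice, 4 per genotype. They took part in the normalization and are not compared with the controls here. No treatment is named, and the sources used here give neither strain nor age. The labels do not say whether control mice shared a litter, so the spread between arrays holds the spread between hearts and that of the assay together.

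Heart muscle cells shorten when myosin thick filaments pull on actin thin filaments, a step that troponin and tropomyosin allow once calcium has been released from the sarcoplasmic reticulum. The ATP for this comes mainly from mitochondria, which in the adult heart burn fatty acids before glucose and lactate. Many proteins of contraction and energy supply exist as isoforms from separate genes, some typical of heart or skeletal muscle and others present in most cells. Cardiomyocytes fill most of the volume of the ventricle, while endothelial cells, fibroblasts, pericytes and macrophages make up most of its other cells. In such bulk tissue, fewer cells of a type and less RNA per cell cannot be told apart.

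The promoters of genes that are read out in the following sections differed in how many CG they held. CG is the dinucleotide that vertebrate genomes methylate, and promoters of broadly used genes are often rich in it. The 120 bases before the annotated start are printed 5′ to 3′ on the strand of the gene, from RefSeq and build GRCm38.p6, with every CG in capitals. They are shown for the calcium sensor of the thin filament (Tnnc1), the main motor and actin genes of the heart (Myh6, Actc1), the fatty acid carrier Fabp3, an ATP synthase and a complex I subunit (Atp5b, Ndufs6), and for muscle and general isoforms of cytochrome c oxidase subunits (Cox8b and Cox7a1 beside Cox8a and Cox7a2).
Tnnc1: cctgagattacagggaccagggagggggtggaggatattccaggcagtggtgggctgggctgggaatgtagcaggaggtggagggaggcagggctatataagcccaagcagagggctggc
Myh6: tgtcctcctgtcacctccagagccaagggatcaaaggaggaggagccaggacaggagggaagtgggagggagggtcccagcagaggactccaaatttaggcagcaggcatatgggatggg
Actc1: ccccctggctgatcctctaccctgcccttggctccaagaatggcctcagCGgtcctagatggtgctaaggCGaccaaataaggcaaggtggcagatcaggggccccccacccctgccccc
Fabp3: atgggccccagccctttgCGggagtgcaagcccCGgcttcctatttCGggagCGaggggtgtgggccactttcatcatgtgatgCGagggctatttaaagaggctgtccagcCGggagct
Atp5b: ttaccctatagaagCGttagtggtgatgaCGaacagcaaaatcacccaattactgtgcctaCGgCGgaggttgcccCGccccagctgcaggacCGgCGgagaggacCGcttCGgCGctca
Ndufs6: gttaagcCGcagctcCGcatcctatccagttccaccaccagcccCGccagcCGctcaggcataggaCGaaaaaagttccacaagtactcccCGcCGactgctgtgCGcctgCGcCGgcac
Cox8b: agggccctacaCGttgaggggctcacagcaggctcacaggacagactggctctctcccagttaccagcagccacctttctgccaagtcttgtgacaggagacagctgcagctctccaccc
Cox8a: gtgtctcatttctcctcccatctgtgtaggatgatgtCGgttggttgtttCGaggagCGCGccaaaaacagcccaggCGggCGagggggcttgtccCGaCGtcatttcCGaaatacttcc
Cox7a1: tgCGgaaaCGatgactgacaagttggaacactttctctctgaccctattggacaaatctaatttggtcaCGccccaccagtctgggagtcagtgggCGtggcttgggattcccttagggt
Cox7a2: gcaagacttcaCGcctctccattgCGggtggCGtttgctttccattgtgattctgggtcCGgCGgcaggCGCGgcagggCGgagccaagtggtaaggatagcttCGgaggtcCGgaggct

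In build GRCm38.p6 these stretches lie on the plus strand at chr14:31208192-31208311 for Tnnc1, chr4:130308618-130308737 for Fabp3, chr10:128083187-128083306 for Atp5b and chr7:30184051-30184170 for Cox7a1. On the minus strand they lie at chr14:54966608-54966727 for Myh6, chr2:114052876-114052995 for Actc1, chr13:73328483-73328602 for Ndufs6, chr7:140900447-140900566 for Cox8b, chr19:7217617-7217736 for Cox8a and chr9:79759854-79759973 for Cox7a2. Each stretch ends at the last base before the annotated start of its gene, and coordinates count from 1.

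Counts of CG over the whole window of 300 bases (250 before and 50 after the start) differed by gene group. The window held 1 CG at Tnnc1, 2 at Myh6 and 7 at Actc1, while it held 18 at Atp5b, 20 at Ndufs6 and 22 at Fabp3. Among isoform pairs, Cox8b had 2 and Cox8a 19, Cox7a1 had 7 and Cox7a2 20, Pgam2 had 1 and Pgam1 30, and Ckm had 7 and Ckb 22. Eno3 had 3 and Eno2 15, and Pygm had 4 and Pygb 21. Hexokinase went the other way, with 25 at Hk2 and 10.5, as the mean of 2 annotated promoters, at Hk1. So did Tpm1 with 27 beside 9 at Tpm3, and Tmod1 with 25 beside 5.5 at Tmod2. The counts of Tpm3 and Tmod2 are also means of 2 promoters. These pairs were chosen with their signals known, so they are a description. Of the contractile genes detected on all 4 arrays, 47 had a promoter in the table, and 12 of these (25.5%) held at least 15 CG, with a median of 7. Of the respiratory chain genes detected on all 4 arrays, 31 of 37 (83.8%) held at least 15, with a median of 19. The same share was 72.7% over all genes detected on 4 arrays, 37% over those detected on 0, 51.5% over all genes measured and 34.6% over all 32851 promoters of the table. Stromal and immune genes detected on 4 arrays had shares of 31.5% (17 of 54) and 15% (3 of 20). A CG count describes the letters of the window and shows neither methylation nor use of the promoter.

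Detection was read from the p-value that the authors deposited for each probe and array, which sets the probe against the negative control beads. At p under 0.01, 7622 probes (29.7%) were detected on 4 of 4 control arrays, 2186 (8.51%) on 1 to 3 and 15889 (61.8%) on 0. Joined to genes, 5722 of 16593 genes (34.5%) had a probe detected on all 4 arrays, 1427 (8.6%) on 1 to 3 arrays and 9444 (56.9%) on 0. Of the 7622 probes, 6904 were also detected on all 12 transgenic arrays of the series. The mean deposited signal was 282, 330, 267 and 233 in replicates 1 to 4, and between 8559 and 8758 probes were detected per array. Signals are given as log2 of the background-corrected and quantile-normalized intensity. On this scale the detection limit lay between 5.55 and 5.61, and the median over all genes was 5.06. Means are given with the SD over 4 hearts, and a gene is given by its brightest probe. A signal depends on the probe as well as on the amount of transcript. Ranks therefore order probe signals, and they do not measure how much more abundant a transcript is than that of another gene.

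A probe below the limit did not show that its transcript was missing. Eef1a1, Tpt1, Rplp2, Rpl6, Pgk1 and Actg1, which most cells use, were detected on 0 arrays, and so were the heart genes Cd36, Trdn, Gata4 and Dmd. Among the 4777 genes with more than 1 probe, 1344 had a probe on 4 arrays and another on 0. Of 906 genes in 49 lists, 108 had no named probe here, 466 were detected on 4 arrays, 59 on 1 to 3 and 273 on 0. Near the threshold, Cst11 was the dimmest gene whose brightest probe passed on all arrays, with 5.70, 5.62, 5.59 and 5.72. Megf9, the brightest with 0 arrays, read 5.43, 5.53, 5.53 and 5.57. Hp, the plasma protein haptoglobin, was the brightest gene detected on 3 arrays only and read 5.46, 7.11, 7.94 and 8.73. These genes at the edge were chosen after their values were seen.

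The signal was concentrated in few genes. On the normalized scale the 10 brightest genes held 6.52% of the summed signal of all genes, the 100 brightest 31.3% ± 0.05 and the 1000 brightest 71.8%. Quantile normalization gives each array the same set of values, so the small SD of these shares is set by the method. On the authors' scaled values, where this does not hold, the 100 brightest genes held 33.3% ± 0.28. Of these 100 genes, 38 had symbols of the oxidative phosphorylation families, out of 97 genes measured with such symbols. The match by symbol also took in Cox17 and Atpif1, which are not subunits. A further 12 had symbols of cytosolic ribosomal proteins, out of 72 measured genes whose symbols begin with Rpl or Rps. The totals of 97 and 72 rest on symbols alone and may hold genes of other proteins. Contractile lists gave 11 of their 89 genes, calcium handling 4 of 53 and the metabolic lists together 40 of 201. Stromal lists gave 0 of 126 and immune lists 0 of 103.

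**Figure D1:**
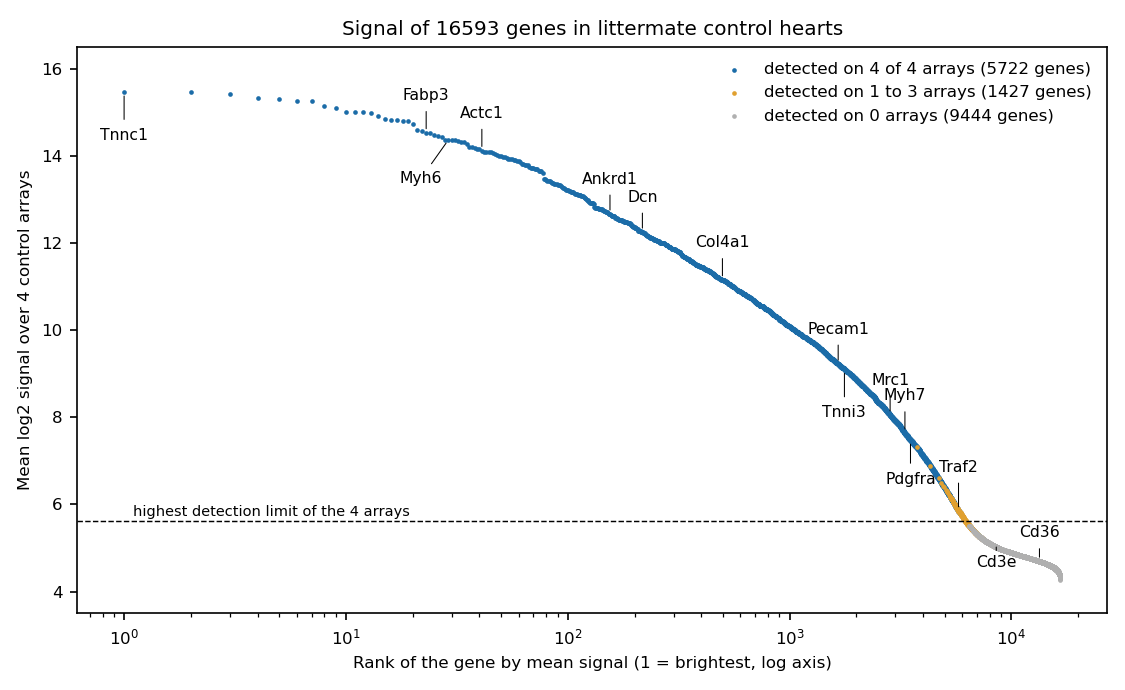
Mean log2 signal over 4 control arrays (vertical axis) of 16593 genes against their rank (horizontal log axis), coloured by the number of arrays on which the gene was detected. The dashed line is the highest detection limit of the 4 arrays, 5.61, and labelled genes run from Tnnc1 at rank 1 through Dcn (12.25) and Myh7 (7.64) to Cd36 below the limit.

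The top ranks were shared by the probes of Tnnc1 and Atp5b. Tnnc1 is the calcium-binding troponin subunit of heart and slow muscle. The deposited signals of Tnnc1 were 49800, 54078, 46050 and 39336, which became 15.52, 15.46, 15.46 and 15.46 after normalization. Atp5b, the catalytic subunit of ATP synthase, had deposited signals of 49209, 52659, 48208 and 42537, which became 15.46, 15.39, 15.52 and 15.52. Tnnc1 stood at rank 1 after normalization, and Atp5b at rank 1 on the authors' scaled values. Both stood at the upper end of the scale, where normalized values of different probes repeat because they are assigned by rank. The next ranks belonged to the light chains Myl2 (15.43 ± 0.06) and Myl3 (15.34 ± 0.10), to Atp2a2 (15.30 ± 0.09), the calcium pump of the sarcoplasmic reticulum, and to the alpha globin Hba-a1 (15.27 ± 0.11). Hspb6, a small heat shock protein abundant in muscle, averaged 15.27 ± 0.04. Rplp1, a protein of the ribosomal stalk, averaged 15.15 ± 0.06. Nppa, the precursor of atrial natriuretic peptide, averaged 15.10 ± 0.10. Lpl, the lipase that frees fatty acids from circulating triglyceride, averaged 15.02 ± 0.07. Ranks 11 to 20 were held by 9 subunits of complexes I, III, IV and V and by the mitochondrial creatine kinase Ckmt2. Ranks 21 to 30 held Etfb, Etfa and Acadm of fatty acid oxidation, Myl4, Fabp3, Csrp3, Fth1, Myh6, Cox7c and Ndufc1, and all 10 averaged between 14.37 and 14.59.

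Of the 4 genes used to mark heart muscle, 3 had a named probe and all 3 were bright. Myh6 read 14.35, 14.33, 14.39 and 14.41 and stood at rank 29. Actc1 read 14.13, 14.19, 13.99 and 14.18, at rank 41. Fabp3 read 14.61, 14.51, 14.46 and 14.54, at rank 23. The 4 hearts lay close together, with SDs of 0.03, 0.09 and 0.07 for Myh6, Actc1 and Fabp3. Tnnt2 was not analysed here. Ventricular Myl2 and Myl3 were among the 4 brightest genes, and Irx4, a transcription factor of ventricular muscle, was detected on all 4 arrays at 6.95.

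The label of left ventricle was accompanied by signals of genes typical of atrial muscle. Of 12 measured atrial markers, 11 were detected on 4 arrays (91.7%, beside 34.5% of all genes), with a median of 9.80. Nppa read 15.16, 15.16, 14.95 and 15.12. Myl4, the atrial essential light chain, read 14.66, 14.49, 14.61 and 14.57. Sln, sarcolipin, which inhibits the calcium pump mainly in atria and skeletal muscle, read 13.81, 13.86, 14.06 and 13.94. Myl7, the atrial regulatory light chain, read 10.29, 10.33, 10.82 and 10.44. All 4 hearts were alike in this, and the SDs of these 4 genes ran from 0.07 (Myl4) to 0.24 (Myl7). Mybphl averaged 11.67 ± 0.13, Gja5, a connexin of atria and conduction fibres, 9.14 ± 0.33, and Bmp10, a growth factor of atrial muscle, 7.36 ± 0.27. Nr2f2, a transcription factor of atrial identity, averaged 6.56 ± 0.31. Pam was detected on 0 arrays. The extraction text speaks of hearts and the tissue label of left ventricle, and the part of atrial tissue in these signals was not tested.

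Among myosin heavy chains, the adult motor of the mouse ventricle stood far up the ranking and the fetal and slow motor was dim. Myh6 has a second probe, which averaged 8.31 and was also detected on 4 arrays. Myh7, the beta heavy chain, read 8.25, 7.87, 7.61 and 6.82 (rank 3311). Its SD of 0.60 was the largest among contractile genes detected on 4 arrays, and replicate 4 lay lowest. Smooth muscle Myh11 averaged 9.0 ± 0.29, and the non-muscle heavy chains Myh9 and Myh10 averaged 8.33 ± 0.35 and 7.21 ± 0.17. Myh8, a perinatal skeletal chain, was detected on 2 arrays. Fast skeletal Myh1 and Myh4 were detected on 0.

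Myosin light chains showed ventricular and atrial forms together. Of 11 measured genes, 8 were detected on 4 arrays. Besides Myl2, Myl3, Myl4 and Myl7 these included Myl1, best known from fast skeletal muscle and atria, which read 12.37, 12.35, 12.83 and 12.57. A second probe of Myl1 was detected on 0 arrays, so its call rests on 1 of 2 probes. Myl6 of smooth and non-muscle cells averaged 10.09 ± 0.32. The cardiac light chain kinase Mylk3 averaged 9.44 ± 0.26 on its brightest probe, with another of its 3 probes on 0 arrays. Mylk of smooth muscle averaged 8.86 ± 0.32, with replicate 4 at 9.34 and the other hearts between 8.66 and 8.73. Mylpf, the fast skeletal regulatory chain, was detected on 1 array, and Myl6b and Mylk2 on 0.

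Actins covered the muscle and general forms. Actc1, the cardiac alpha actin, had a second probe that averaged 9.20, also on 4 arrays. Acta1, the skeletal alpha actin, averaged 11.49 ± 0.18. Acta2 of smooth muscle read 12.86, 12.97, 13.38 and 13.48, higher in replicates 3 and 4 than in 1 and 2. Actb averaged 13.13 ± 0.11, and its 5 probes, all detected on 4 arrays, ranged from 9.39 to 13.13. The readings of 1 gene thus differed between its probes. Actg2, the enteric actin, was detected on 3 arrays, and Actg1 on 0.

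For the troponins, each cardiac subunit with a probe was detected while 4 skeletal forms were not. Tnni3, the cardiac inhibitory subunit, read 9.21, 9.33, 8.97 and 8.91. Its fetal and slow counterpart Tnni1 and fast Tnni2 were detected on 0 arrays, as were fast Tnnc2 and Tnnt3. Tnnt1, the slow skeletal troponin T, was the exception with 9.46, 9.67, 9.80 and 10.24. Tnni3k, a cardiac kinase named for its binding to Tnni3, averaged 8.08 ± 0.16. Tpm1, the main tropomyosin of the heart, averaged 9.17 ± 0.12. Tpm2 averaged 7.46 ± 0.25 and Tpm3 6.80 ± 0.16, and 1 of 3 probes for Tpm2 and 2 of 4 for Tpm3 were detected on 0 arrays. The pointed-end caps Tmod1 and Tmod4 averaged 11.39 ± 0.08 and 10.22 ± 0.11. Tmod3 was detected on 2 arrays and Tmod2 on 1, and Lmod1 and Lmod2 on 0.

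Of the thick filament and M-band genes, 4 of 8 were detected on all arrays. Ttn, the giant spring of the sarcomere, read 13.75, 13.58, 13.68 and 13.91. Mybpc3, the cardiac myosin-binding protein C, averaged 13.40 ± 0.15, while fast skeletal Mybpc2 was detected on 1 array and slow skeletal Mybpc1 on 0. The M-band protein Myom1 averaged 11.54 ± 0.17, and Myom2 and Obsl1 were detected on 0 arrays.

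Z-disc and costamere genes were detected on 4 arrays for 19 of 27. Csrp3, the muscle LIM protein, averaged 14.52 ± 0.11, Tcap, which anchors titin, 14.22 ± 0.12, and the alpha actinin Actn2 13.89 ± 0.08. Des, the intermediate filament of muscle, averaged 13.08 ± 0.13. Ankrd1, a stretch-responsive ankyrin repeat protein, varied more than these and read 13.26, 12.86, 12.04 and 12.50. The alpha actinins of other cells were detected as well, with Actn4 at 9.26 ± 0.09 and Actn1 at 7.68 ± 0.13, and fast skeletal Actn3 was detected on 0 arrays. Myoz2, the calsarcin of heart and slow muscle, averaged 11.39 ± 0.10, while Myoz1 and Myoz3 were detected on 0. Cryab, a chaperone of the Z-disc, averaged 11.66 ± 0.05. The sarcoglycans Sgca and Sgcb averaged 10.89 ± 0.13 and 9.66 ± 0.09, and Sgcd was detected on 0. The PDZ-LIM proteins averaged 11.06 ± 0.39 for Pdlim5, 10.29 ± 0.27 for Ldb3 and 9.69 ± 0.17 for Pdlim3. Ankrd23 averaged 9.74 ± 0.33, Csrp1 8.64 ± 0.23, Vcl 7.79 ± 0.40, Myot 6.80 ± 0.21 and Synpo2l 6.41 ± 0.32. Nebl, Nexn, Dmd and Ankrd2 were detected on 0 arrays.

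At the intercalated disc, where cardiomyocytes join, 7 of 12 genes were detected on 4 arrays. Gja1, the main ventricular connexin, read 12.42, 12.43, 12.67 and 12.62. The connexin genes Gjc1 and Gjd3 were detected on 0 arrays. Desmosomal Pkp2 averaged 11.14 ± 0.15 and Dsg2 7.47 ± 0.43. Xirp1 averaged 7.27 ± 0.11, Ctnna3 6.17 ± 0.19 and Cdh2, the cadherin of the disc, 6.15 ± 0.25. The reading of Cdh2 came from 1 of 4 probes, and the other 3 were detected on 0 arrays. Jup, Dsc2 and Tjp1 were detected on 0.

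**Figure D2:**
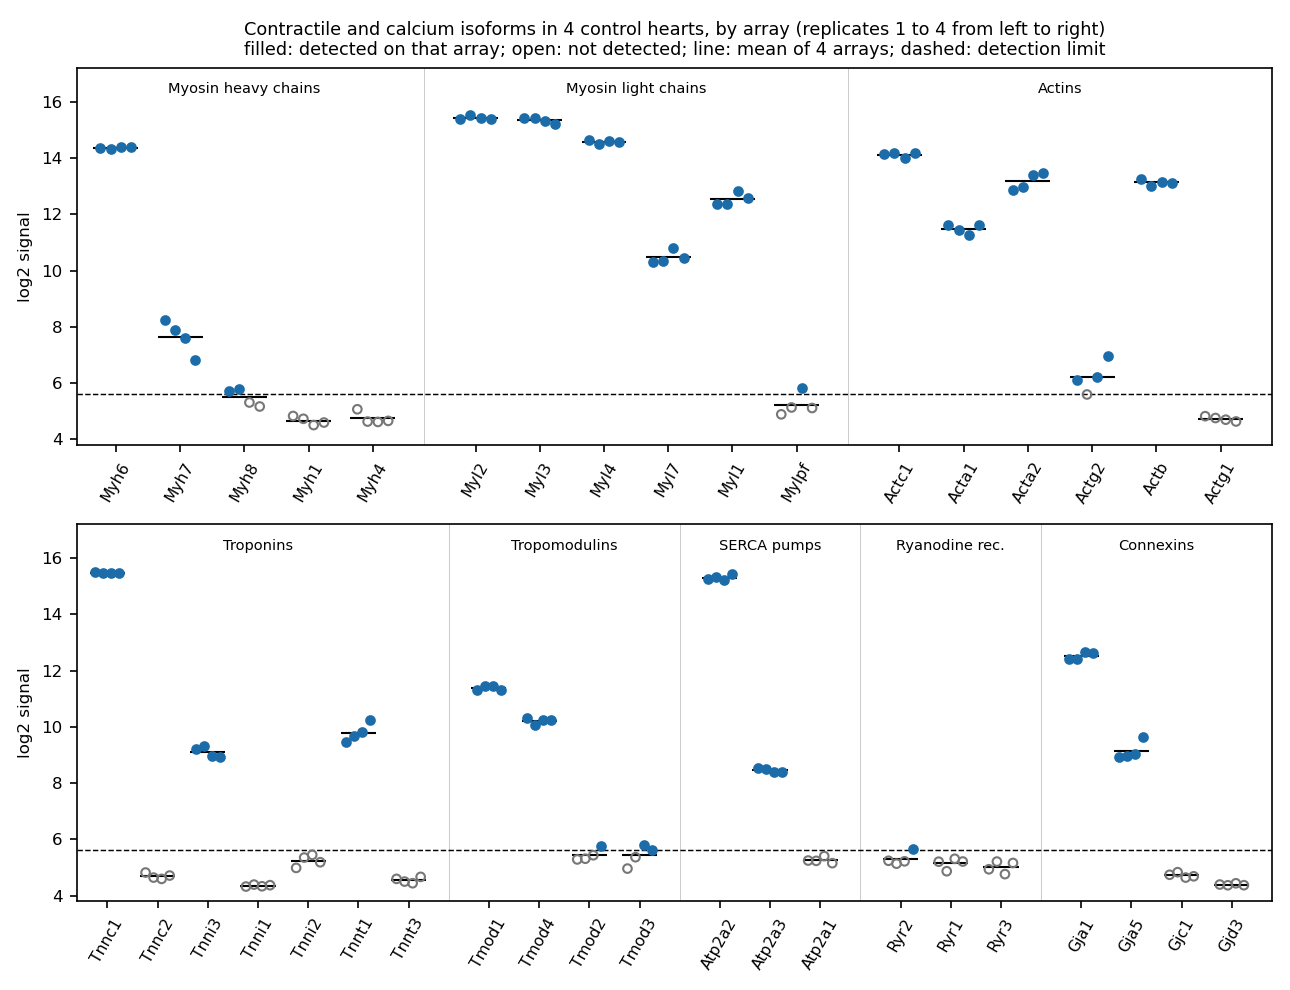
Log2 signal of contractile and calcium-handling isoforms in each of 4 control hearts (points, replicates 1 to 4 from left to right), with the mean of 4 arrays as a line and the detection limit dashed. Filled points were detected and open points were not; Myh6, Tnnc1 and Atp2a2 stood above 14, while Myh1, Myh4, Tnni1, Tnni2 and Atp2a1 lay below the limit in all 4 hearts.

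Calcium-handling genes held 4 of the 100 brightest, and 21 of 34 were detected on 4 arrays. Atp2a2 read 15.27, 15.32, 15.21 and 15.42, the fast skeletal pump Atp2a1 was detected on 0 arrays, and Atp2a3 averaged 8.46 ± 0.07 on 1 of its 3 probes. S100a1, a calcium sensor that binds the pump, averaged 14.08 ± 0.08, and Hrc, a calcium-binding protein of the reticulum, 14.04 ± 0.07. Casq2, the cardiac calsequestrin, averaged 10.83 ± 0.22, and skeletal Casq1 was detected on 0. Pln, phospholamban, the ventricular inhibitor of the pump, read 7.25, 7.24, 8.14 and 8.20, so replicates 1 and 2 lay below 3 and 4 without overlap. Ryr2, the cardiac release channel, was detected on 1 array at a mean of 5.31, and Ryr1 and Ryr3 on 0. The exchanger Slc8a1 averaged 10.43 ± 0.06, and Slc8a2 and Slc8a3 were detected on 0. Calcium channel subunits averaged 10.96 ± 0.50 for Cacna2d1, 8.18 ± 0.03 for the T-type Cacna1h and 6.21 ± 0.30 for Cacna1c, the pore of the cardiac L-type channel. Cacna2d1 read 11.51, 11.14, 10.88 and 10.31. All 4 genes of the CaM kinase family were detected, at 8.34 ± 0.26 for Camk2d, 7.83 ± 0.20 for Camk2b, 7.74 ± 0.33 for Camk2a and 7.45 ± 0.12 for Camk2g. Camk2d is the main cardiac form, and 1 of its 4 probes passed on all arrays.

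Channels and pumps for sodium and potassium were detected on 4 arrays for 15 of 19 genes, most of them at low signal. Atp1b1, the beta subunit of the sodium pump, averaged 12.14 ± 0.19, Abcc9, the sulfonylurea receptor of heart and vessels, 9.72 ± 0.05, Kcnh2, the channel of the rapid delayed rectifier, 9.43 ± 0.21, and Scn4b, a beta subunit of the sodium channel, 9.05 ± 0.17. The other 11 ranged from 6.04 (Abcc8) to 8.0 (Kcnd2). Kcnd2, of the transient outward current, read 8.43, 7.92, 8.19 and 7.44. Kcnj2, Kcnj5, Kcna5 and Kcnd3 were detected on 0 arrays. The value of Abcc9 came from 1 of its 3 probes.

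Among fatty acid binding proteins, Fabp3, the form of heart and skeletal muscle, was the only detected member of 7. Fabp4 and Fabp5, known from fat cells and endothelium, and Fabp1, Fabp2, Fabp6 and Fabp7 were detected on 0 arrays. Uptake and activation of fatty acids had 14 of 22 genes on 4 arrays. Lpl read 15.02, 14.95, 15.12 and 14.98, and Gpihbp1, which holds it on capillary walls, averaged 9.31 ± 0.11. Pnpla2, the lipase of stored triglyceride, averaged 12.78 ± 0.03, Dgat2, which makes triglyceride, 11.89 ± 0.05, and Plin5, a lipid droplet coat of oxidative tissue, 9.46 ± 0.14. For entry into mitochondria, the muscle form Cpt1b read 10.64, 10.55, 10.84 and 10.59, and Cpt1a and Cpt1c were detected on 0. Cpt2 averaged 11.88 ± 0.17, the carnitine carrier Slc25a20 12.02 ± 0.04 and Crat 10.74 ± 0.15. Acyl-CoA synthetases averaged 9.15 ± 0.20 for Acsl5 and 7.87 ± 0.33 for Acsl6, and the value of Acsl6 came from 1 of 3 probes. Acsl3 was detected on 1 array and Acsl4 on 0, and Acsl1 was not analysed here. The transporters Slc27a1 and Slc22a5 averaged 8.71 ± 0.13 and 7.99 ± 0.24, and Lipe 6.05 ± 0.27. Dgat1 was detected on 3 arrays and Slc27a4 on 2, and Plin2 and Cd36 on 0.

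Beta-oxidation was among the most completely detected lists, with 17 of 20 genes on 4 arrays (85%). The electron carriers Etfb and Etfa averaged 14.59 ± 0.06 and 14.44 ± 0.06, and their oxidoreductase Etfdh 10.10 ± 0.11. Acadm, the medium-chain dehydrogenase, read 14.46, 14.43, 14.51 and 14.51. The dehydrogenases for other chain lengths averaged 11.80 ± 0.08 (Acadvl), 10.54 ± 0.13 (Acads) and 9.41 ± 0.18 (Acadl). Among later enzymes of the spiral, Acaa2 averaged 12.46 ± 0.16, Eci1 11.80 ± 0.04, Echs1 11.69 ± 0.10 and Decr1 10.68 ± 0.11. Hadhb, a subunit of the trifunctional protein, read 9.42, 9.38, 10.37 and 10.31, with replicates 1 and 2 below 3 and 4. The peroxisomal thiolase Acaa1a averaged 11.36 ± 0.05, and the thioesterases Acot13, Acot1 and Acot2 averaged 11.12 ± 0.19, 9.49 ± 0.23 and 7.49 ± 0.43. Eci2 averaged 6.63 ± 0.48. The uncoupling proteins Ucp1 and Ucp3 were detected on 2 arrays each, and Hadh on 0.

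Glucose uptake and glycolysis had 21 of 31 genes on 4 arrays. Slc2a4, the insulin-dependent transporter, read 9.85, 9.91, 9.86 and 9.78, and Slc2a1 averaged 7.98 ± 0.09. Slc2a2 and Slc2a3 were detected on 0. Hk2, the hexokinase of insulin-sensitive tissue, read 13.45, 13.37, 13.39 and 13.55, and Hk1 lay close to the limit at 5.76 ± 0.09. All 3 phosphofructokinase genes were detected, at 13.31 ± 0.07 for the muscle form Pfkm, 11.13 ± 0.12 for Pfkl and 8.07 ± 0.13 for Pfkp. The second probe of Pfkl was detected on 0 arrays. Gapdh averaged 14.33 ± 0.08, Tpi1 13.34 ± 0.16 and Aldoa 11.95 ± 0.17. The muscle enolase Eno3 averaged 14.00 ± 0.09, and Eno2, known from neurons, 6.02 ± 0.16. The muscle mutase Pgam2 averaged 12.25 ± 0.13 and Pgam1 6.16 ± 0.35. Ldha averaged 12.80 ± 0.11, Pkm 11.83 ± 0.20 and the D-lactate dehydrogenase Ldhd 8.83 ± 0.19. All 3 glycogen phosphorylase genes were detected, with Pygb at 10.55 ± 0.37, Pygm at 9.70 ± 0.10 and Pygl at 7.28 ± 0.13. Gys1, the muscle glycogen synthase, averaged 6.02 ± 0.09, and the liver form Gys2 was detected on 0. Hk3, Aldoc, Pklr, Pgk1, Pgk2, Gapdhs and Ldhc were detected on 0 as well.

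For pyruvate entry and the citric acid cycle, 21 of 27 genes were detected on 4 arrays. Got2 of the malate-aspartate shuttle averaged 14.06 ± 0.10, Idh3g 13.71 ± 0.06 and Ogdh 13.16 ± 0.12. Pdha1, the somatic E1 subunit of pyruvate dehydrogenase, averaged 12.51 ± 0.14, and Pdha2, its testis form, was detected on 0. Dlat averaged 9.59 ± 0.21 and Pdhb 9.43 ± 0.27. Of the kinases that switch the complex off, Pdk4, induced by fasting and fatty acids, read 9.52, 10.28, 11.11 and 10.40. Replicate 1 lay lowest and replicate 3 highest, and its SD of 0.65 was the largest among metabolic genes detected on 4 arrays. Pdk2 averaged 8.51 ± 0.22 and Pdk1 7.04 ± 0.21, and Pdk3 was detected on 0. Further along the cycle, Suclg1 averaged 12.19 ± 0.23, Dlst 12.07 ± 0.07, Idh3a 11.74 ± 0.07, Fh1 11.10 ± 0.06, Cs 10.24 ± 0.20, Mdh2 9.88 ± 0.21, Suclg2 9.52 ± 0.09 and Idh3b 8.63 ± 0.41. Idh2 read 8.59, 8.91, 9.73 and 9.60, again with replicates 1 and 2 below 3 and 4. The cytosolic enzymes Idh1, Got1 and Mdh1 averaged 8.08 ± 0.24, 7.39 ± 0.25 and 6.54 ± 0.35. Pcx was detected on 2 arrays, and Dld, Sucla2 and Aco1 on 0.

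Use of ketones and branched-chain amino acids was led by Oxct1, the enzyme that activates ketone bodies, at 13.33 ± 0.15. Bdh1, which oxidizes hydroxybutyrate, averaged 9.60 ± 0.16, and Acat1 6.19 ± 0.20. Bckdha averaged 11.38 ± 0.10, Bcat2, the mitochondrial aminotransferase, 10.55 ± 0.32, Dbt 9.17 ± 0.14 and Bckdhb 6.37 ± 0.16. Hmgcs1, a cytosolic enzyme of sterol synthesis, averaged 10.72 ± 0.18. Cytosolic Bcat1 and the lactate exporter Slc16a3 were detected on 1 array each, and Slc16a1, Slc16a7 and Oxct2a on 0.

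Creatine kinases, which carry phosphate energy from mitochondria to myofibrils, included 3 detected forms. Ckmt2, the mitochondrial form of muscle, read 14.73, 14.73, 14.85 and 14.92. Ckm, the cytosolic muscle form, read 13.20, 13.23, 12.94 and 13.20. Ckb, known from brain and smooth muscle, read 12.25, 12.04, 12.33 and 12.27. Ckmt1, the ubiquitous mitochondrial form, was detected on 0. The SDs of the detected forms were 0.10 (Ckmt2), 0.14 (Ckm) and 0.12 (Ckb). The ADP/ATP carrier Slc25a5 averaged 12.50 ± 0.31, the phosphate carrier Slc25a3 9.70 ± 0.51 and the creatine transporter Slc6a8 10.06 ± 0.16. The outer membrane channels averaged 10.20 ± 0.08 (Vdac1), 9.82 ± 0.22 (Vdac3) and 8.38 ± 0.13 (Vdac2). The adenylate kinases Ak3, Ak1 and Ak4 averaged 9.01 ± 0.13, 8.29 ± 0.24 and 6.57 ± 0.26, and Gamt of creatine synthesis 6.79 ± 0.14. Gatm, Ampd1, Ampd3 and Slc25a31 were detected on 0.

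Cytochrome c oxidase showed the muscle isoforms of 3 subunit pairs at high ranks, with 16 of 20 genes on 4 arrays. Cox6a2, the heart form, read 15.12, 15.07, 14.92 and 14.95, and the general form Cox6a1 read 12.08, 12.13, 12.38 and 12.46. Cox7a1, the heart form, read 14.85, 14.92, 14.73 and 14.77. Cox7a2, the general form, lay near the limit with 5.68, 5.61, 6.13 and 6.52. Cox8b, the muscle form, read 14.02, 13.97, 13.92 and 13.85, and Cox8a read 12.31, 12.29, 12.22 and 12.45. For the pairs of Cox7a and Cox8 forms the promoters are printed above, with 7 and 20 CG for Cox7a1 and Cox7a2 and 2 and 19 for Cox8b and Cox8a. Since each isoform has a probe of its own, these readings give ranks and no ratio between isoforms. Cox4i1 averaged 13.97 ± 0.05, and the lung-type Cox4i2 6.49 ± 0.23. Further subunits averaged 14.83 ± 0.06 (Cox6b1), 14.47 ± 0.11 (Cox7c), 14.28 ± 0.06 (Cox5b), 13.48 ± 0.11 (Cox5a), 10.30 ± 0.43 (Cox6c) and 6.57 ± 0.42 (Cox7b). Cox7a2l averaged 10.04 ± 0.09, and Cycs, somatic cytochrome c, 6.76 ± 0.47 on 1 of 2 probes. The testis forms Cox8c, Cox7b2 and Cyct were detected on 0, and Cox6b2 on 1 array.

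The other respiratory chain genes were detected on 4 arrays for 30 of 35 (85.7%), with a median of 12.72, the highest of the 49 lists. Their median SD was 0.09, beside 0.12 over the brightest of 4 equal bins of the genes detected on 4 arrays. Most genes of that bin were dimmer than the median of this list, and dimmer genes spread more. The SD of the list was therefore not set against genes of equal signal. The 3 genes for the c ring of ATP synthase, which encode the same mature protein, averaged 14.98 ± 0.04 (Atp5g1), 14.92 ± 0.10 (Atp5g3) and 10.48 ± 0.17 (Atp5g2). Atp5j averaged 14.73 ± 0.05, Atp5c1 13.93 ± 0.07, Atp5pb 12.62 ± 0.23, Atp5d 11.59 ± 0.15, Atp5h 11.39 ± 0.15 and Atp5o 8.86 ± 0.04. Atp5a1, the partner of Atp5b in the catalytic head, averaged 7.48 ± 0.38. Atpif1, the inhibitor of the enzyme, averaged 13.38 ± 0.07. Besides Ndufs6 and Ndufc1 of the 30 brightest, the listed genes with Nduf symbols on 4 arrays averaged from 14.33 ± 0.05 (Ndufb8) to 11.40 ± 0.27 (Ndufb3). Between them lay Ndufa4 at 14.17 ± 0.05, Ndufa10 at 13.98 ± 0.05, Ndufv1 at 13.95 ± 0.09, Ndufa9 at 13.79 ± 0.03 and Ndufv2 at 13.48 ± 0.06. Lower in this range were Ndufs7 at 13.12 ± 0.09, Ndufs8 at 12.65 ± 0.11, Ndufa1 at 12.63 ± 0.15 and Ndufs3 at 11.55 ± 0.14. In complex II, Sdhc averaged 12.72 ± 0.15 and Sdhb 10.87 ± 0.17, and Sdhd was detected on 1 array. A second probe of Sdhc was detected on 0 arrays. In complex III, Uqcrh averaged 14.20 ± 0.03, Uqcrc2 14.18 ± 0.07, Uqcrc1 13.73 ± 0.15, Cyc1 12.79 ± 0.08 and Uqcrb 8.56 ± 0.46. Ndufb9 was detected on 3 arrays, and Ndufs1, Uqcrfs1 and Uqcrq on 0.

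Oxygen and iron carriers were bright too. Mb, myoglobin, the oxygen store of heart and red muscle, read 13.86, 13.91, 14.22 and 14.35, with replicates 1 and 2 below 3 and 4. A second Mb probe, also detected on 4 arrays, had the reverse order and read 12.45, 12.62, 12.36 and 12.06. The order of the hearts for Mb thus depended on the probe. Fth1, the heavy chain of ferritin, averaged 14.37 ± 0.08. Cygb, a globin of fibroblasts, averaged 10.40 ± 0.32, the transferrin receptor Tfrc 9.98 ± 0.40 and the iron exporter Slc40a1 9.03 ± 0.20. The neuronal globin Ngb and the light ferritin chain Ftl1 were detected on 0.

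**Figure D3:**
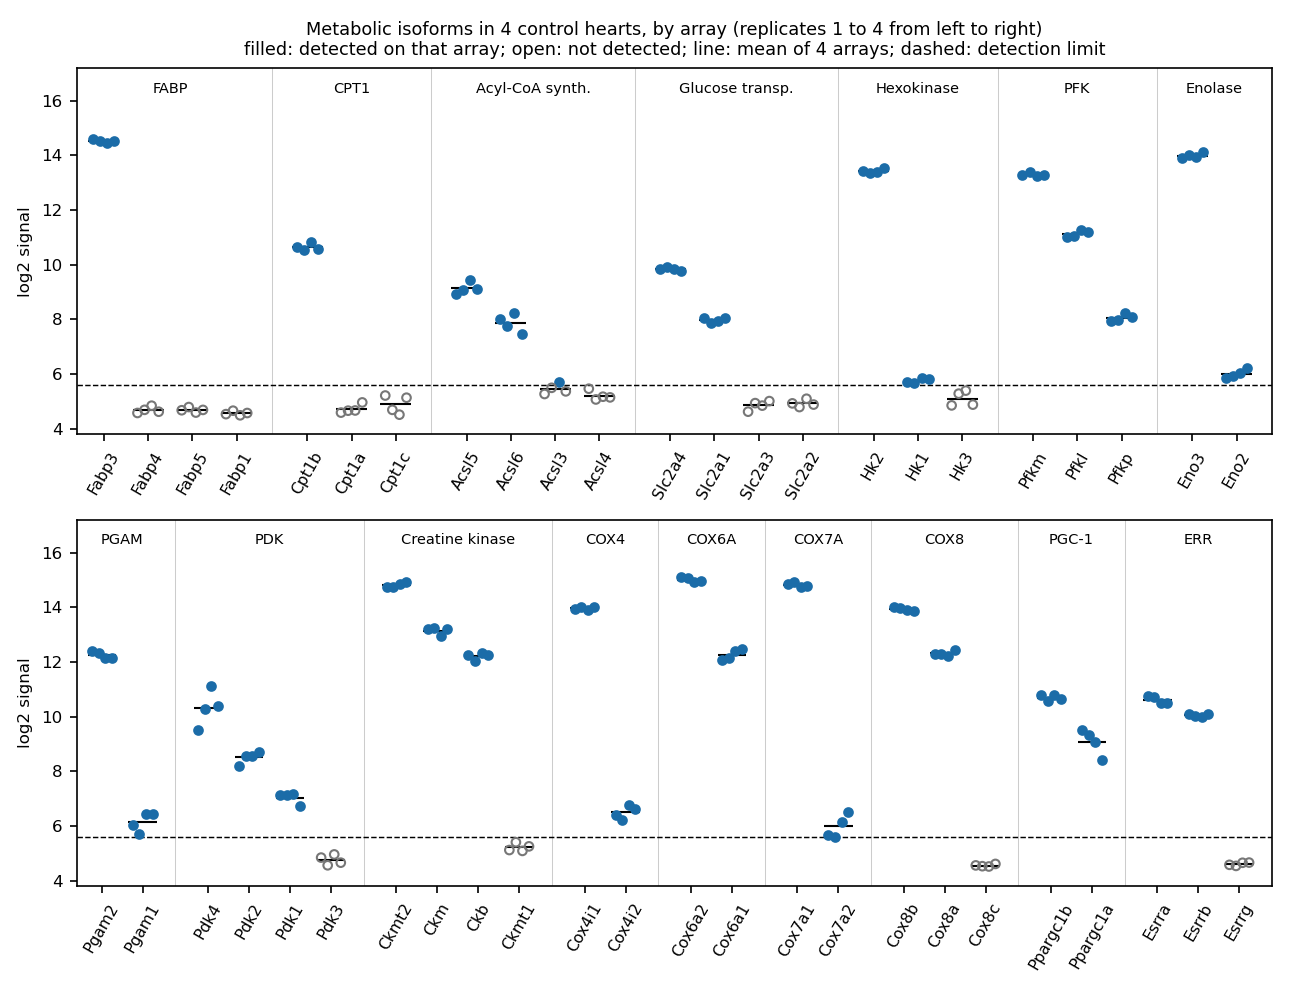
Log2 signal of metabolic isoforms in each of 4 control hearts (points, replicates 1 to 4 from left to right), with the mean of 4 arrays as a line and the detection limit dashed. Filled points were detected and open points were not; Fabp3, Cpt1b and Hk2 were detected in all 4 hearts, Fabp4 and Cpt1a in 0, and Pdk4 spread from 9.52 to 11.11.

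Among regulators of the heart, Nppa was the only member of the 100 brightest genes. The lists named next were detected on 4 arrays for 45.5% to 66.7% of measured genes, beside 34.5% of all genes. Their medians ran from 5.40 to 7.26, above the 5.06 over all genes. Nppb, the precursor of B-type natriuretic peptide, read 13.31, 13.36, 12.99 and 12.73. The angiotensin receptor Agtr1a averaged 9.32 ± 0.09, and Chrm2, the muscarinic receptor that slows the heart, 9.25 ± 0.48. Of 25 cardiac transcription factors, 13 were detected on 4 arrays, and the brightest were Myocd (10.08 ± 0.24), Mef2c (9.90 ± 0.24), Irx3 (9.55 ± 0.25) and Gata6 (9.31 ± 0.20). Nkx2-5, the homeobox factor of cardiac fate, averaged 9.01, while Gata4, Hand1, Hand2 and Hopx were detected on 0. Of 15 metabolic receptors and coactivators, 10 were detected on 4 arrays. The coactivators Ppargc1b and Ppargc1a, which drive mitochondrial genes, averaged 10.69 ± 0.11 and 9.07 ± 0.49. Their partners Esrra and Esrrb averaged 10.61 ± 0.14 and 10.06 ± 0.05, and Esrrg was detected on 0. Ppargc1a read 9.51, 9.33, 9.07 and 8.40, with replicate 4 lowest. Of the clock genes, 10 of 18 were detected on 4 arrays, and their median SD of 0.33 was the highest of the 49 lists. Dbp, a clock output factor, averaged 11.97 ± 0.44, Nr1d1 9.26 ± 0.11 and Clock 8.31 ± 0.09. Of 22 immediate early genes, 10 were detected on 4 arrays, led by Ier3 (11.06 ± 0.12), Dusp1 (9.93 ± 0.32), Klf2 (9.27 ± 0.25) and Zfp36 (9.13 ± 0.33), while Fos, Fosb and Atf3 were detected on 0.

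The pathway that the series manipulates had 10 of 21 genes on 4 arrays in these control hearts (47.6%, beside 34.5% of all genes), with a median of 5.61. Rela, the main transactivating NF-kB subunit, averaged 8.72 ± 0.13, Birc2, a ubiquitin ligase bound by TRAF2, 8.67 ± 0.16, Nfkbia, the inhibitor IkBa, 8.31 ± 0.19, and Ikbkg, the scaffold of the IkB kinase, 8.0 ± 0.20. Traf2 averaged 5.85, close to the limit. Nfkb2, Rel, Traf1 and Tnf were detected on 0 arrays. Interferon response genes were on 4 arrays for 7 of 21 (33.3%), about the share of all genes (34.5%), led by Gbp2 (9.61 ± 0.11), Rsad2 (8.52 ± 0.34), Ifit3 (7.46 ± 0.22) and Irf9 (6.56 ± 0.17). Other probes of Gbp2 and Ifit3 were detected on 0 arrays.

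Genes of the vessel wall and matrix were detected often, with none among the 100 brightest genes. Endothelial markers were on 4 arrays for 17 of 21 (81%), with a median of 8.84. Egfl7, secreted by endothelium, read 11.90, 11.93, 11.72 and 11.97, and the water channel Aqp1 averaged 11.84 ± 0.08, Esam 10.61 ± 0.11 and Ly6c1 10.24 ± 0.17. The defining markers Pecam1 and Cdh5 averaged 9.22 and 8.52, and Kdr was detected on 1 array. Lyve1 and Flt4 of lymphatic vessels were detected on 0. Smooth muscle and pericyte markers were on 4 arrays for 15 of 17 (88.2%), a list that shares Acta2, Des, Abcc9, Myh11 and Lmod1 with muscle and channel lists. Smtn averaged 11.47 ± 0.18 and Rgs5, a pericyte marker, 11.30 ± 0.13. Pdgfrb and Tagln averaged 6.66 and 6.26, and Cnn1 was detected on 0.

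Fibroblast markers were on 4 arrays for 11 of 19 (57.9%). Dcn, the matrix proteoglycan decorin, read 12.50, 12.02, 12.28 and 12.19. Fbln1 averaged 10.77 ± 0.25, Gsn 10.19 ± 0.39 and Lum 9.63 ± 0.17. The defining markers Pdgfra and Col1a1 averaged 7.48 and 7.08. Col1a2 was detected on 2 arrays, and Col3a1, Postn and Fap on 0. Of the matrix list, 25 of 39 genes were on 4 arrays, led by Ccn2 (11.81 ± 0.16), Bgn (11.64 ± 0.18), the basement membrane collagen Col4a1 (11.15 ± 0.17) and Sparc (11.04 ± 0.26). None of these 4 leading matrix genes had an SD above that of Sparc.

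Markers of other cell types were detected less completely than those of vessels, and the brightest of them, Upk3b, read 7.61. Adipocyte genes were on 4 arrays for 4 of 9 (44.4%, beside 34.5% of all genes). These were Pparg at 7.26 ± 0.22, Adipoq at 6.47 ± 0.64, Lep at 6.33 ± 0.33 and Lipe at 6.05 ± 0.27. Plin1, Cidec, Retn and Fabp4 were detected on 0. Of 9 mesothelial genes, Upk3b was on 4 arrays at 7.61 ± 0.27, Krt8 was on 2, and Msln and Wt1 were among 7 on 0. Genes of neurons and Schwann cells were on 4 arrays for 4 of 12 (33.3%), about the share of all genes (34.5%). These were Ncam1 (6.38 ± 0.25), Uchl1 (6.29 ± 0.32), Dbh (6.09 ± 0.28) and Mbp (5.95 ± 0.14), all at low signal. Th, S100b and Snap25 were on 0.

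Detection of immune genes differed between lists. The shares over all genes were 34.5% on 4 arrays and 56.9% on 0. Macrophage markers were on 4 arrays for 13 of 21 (61.9%). The lysozyme genes Lyz1 and Lyz2, whose sequences are near-identical so that their probes may share transcripts, averaged 11.44 ± 0.06 and 9.79 ± 0.19. Other probes of Lyz1 averaged 4.47 and 4.45 and were detected on 0 arrays. Laptm5, of leukocyte lysosomes, read 9.77, 9.78, 9.76 and 9.75. The complement genes C1qb, C1qc and C1qa, made by resident macrophages, averaged 9.19, 8.99 and 6.32, and Mrc1, the mannose receptor, 8.05. Adgre1, Itgam, Ccr2 and Cd163 were detected on 0, and Csf1r and Cd68 were not analysed here. Of 15 T and NK cell markers, Prf1, perforin, was on 4 arrays (6.73, 6.39, 6.61 and 7.05). On 0 arrays were 10 of the 15, among them Cd3d, Cd3e, Cd3g, Cd4 and Cd8a. The call of Prf1 rests on 1 of 2 probes, and its other probe was detected on 0 arrays. B cell markers were on 4 arrays for 0 of 8, with Ms4a1, Cd79a and Cd79b on 0 arrays. Neutrophil and mast cell markers were on 4 arrays for 0 of 13, and S100a8 was detected on 2 and S100a9 on 0.

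Antigen presentation was on 4 arrays for 7 of 17 genes (41.2%, beside 34.5% of all genes). B2m, the constant chain of class I molecules, read 11.06, 11.26, 11.57 and 11.28. The class II genes Cd74 and H2-Ab1 averaged 9.71 ± 0.12 and 9.36 ± 0.09, and Tap2 8.53 ± 0.19. Ptprc, the common leukocyte antigen, was detected on 0 arrays, and so were H2-K1 and H2-D1. Of 29 cytokines and chemokines, 7 were on 4 arrays (24.1%, beside 34.5% of all genes). Cxcl12, a chemokine of stromal and endothelial cells, averaged 11.34 ± 0.13, and Il15, a cytokine also made by muscle, 10.72 ± 0.13. Cxcl14 averaged 7.82 ± 0.12 and Ccl9 7.37 ± 0.26. Il1b, Il6, Ifng, Il10 and Ccl2 were among 18 on 0 arrays, as were 56.9% of all genes.

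Markers of blood and other tissues were detected unevenly. Hba-a1 read 15.32, 15.12, 15.39 and 15.27, and Alas2, the haem enzyme of red cell precursors, averaged 8.30 ± 0.29. The other red blood cell markers, Slc4a1 and Epb42, were detected on 2 arrays and on 0, and the part of blood in the signal of Hba-a1 was not tested. Of 16 skeletal muscle markers, Tnnt1 and Pvalb (6.30 ± 0.18) were on 4 arrays and 12 were on 0, among them Myh4, Tnnt3 and Actn3. Liver markers were on 4 arrays for 0 of 9, with Alb, Apoa1 and Ttr on 0. The Y-linked genes Uty, Kdm5d and Eif2s3y and the X-inactivation transcript Xist were all detected on 0 arrays, so these probes gave no check of the label of male.

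Genes of protein upkeep stood high. Beside Hspb6, the heat shock list was led by Bag3 (13.26 ± 0.14), a co-chaperone of the Z-disc, Hspa9 of mitochondria (12.97 ± 0.11) and Hspa8 (12.91 ± 0.18), with 17 of 23 genes on 4 arrays. Mt1, a metallothionein, averaged 13.81 ± 0.11, Prdx2 13.62 ± 0.04, Gstm2 12.48 ± 0.14 and Gpx1 12.40 ± 0.07, and 19 of 28 antioxidant genes were on 4 arrays. Cat and Hmox1 were each detected on 1 array. Of 22 listed ribosomal protein genes, 17 were on 4 arrays. Rpl3l, the form of Rpl3 restricted to heart and skeletal muscle, averaged 13.92 ± 0.06 and stood at rank 56, and Rpl3 averaged 11.46. Rpl9 and Rps2 averaged 13.82 ± 0.04 and 13.80 ± 0.15. Eef1a2, the elongation factor form of muscle and neurons, averaged 14.10 ± 0.13, while Eef1a1, the general form, was detected on 0.

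**Figure D4:**
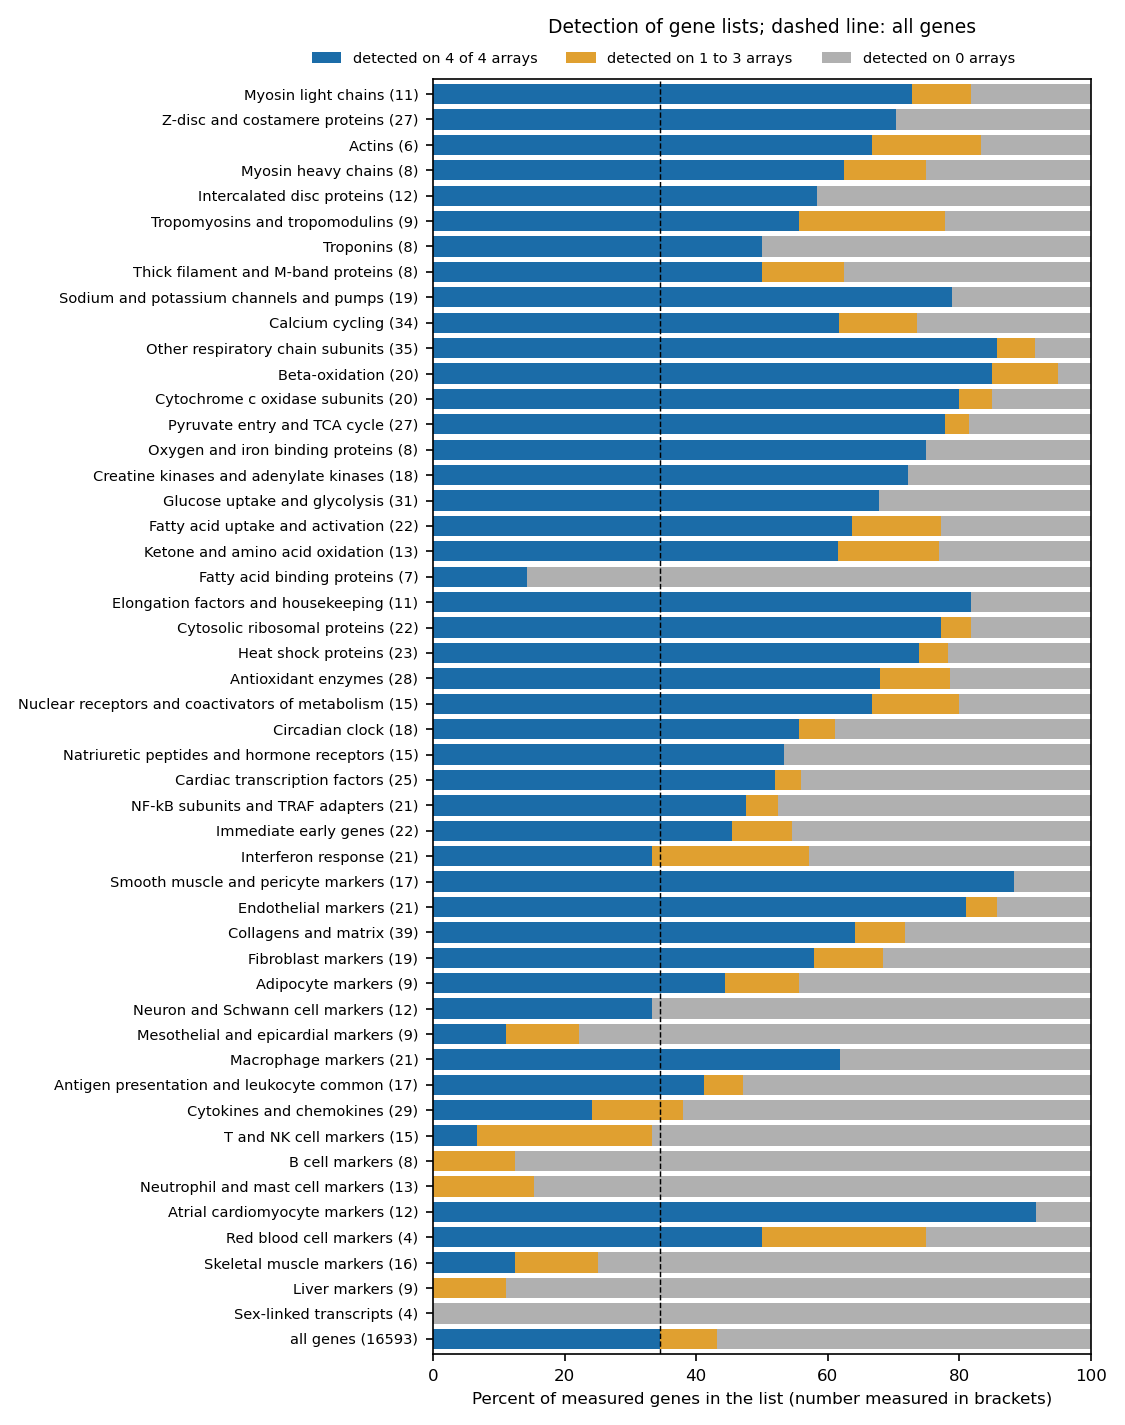
Percent of the measured genes of each list (horizontal bars) detected on 4 of 4, on 1 to 3 and on 0 control arrays, with the number measured in brackets and the 34.5% of all genes detected on 4 arrays as a dashed line. Atrial (91.7%), smooth muscle (88.2%), respiratory chain (85.7%) and beta-oxidation (85%) lists lay highest, and B cell, neutrophil, liver and sex-linked lists held 0 genes on 4 arrays.

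The 4 hearts were alike for most genes. The median SD over genes detected on 4 arrays was 0.16, and the 90th percentile was 0.31. Dimmer genes spread more, and over 4 equal bins of these genes the median SD was 0.20, 0.17, 0.14 and 0.12 from the dimmest bin to the brightest. Over the 7622 probes, correlations between arrays ran from 0.981 (replicates 1 and 4) to 0.992 (replicates 1 and 2). Replicates 1 and 2 stand in the first 8 columns of the deposited table and replicates 3 and 4 in the last 8, and no label says what this place stands for. Replicates 1 and 2 were both below or both above replicates 3 and 4 in 48.1% of all genes detected on 4 arrays (2751 of 5721) and in 79.7% of the 59 genes with an SD over 0.5 (47 of 59). Among the 12 genes with the largest SD it was 66.7% (8 of 12). The part of the place in the table in these differences was not tested.

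Among genes detected on all 4 arrays, the 12 with the largest SD included a clock gene. Xlr4a, an X-linked lymphocyte-regulated gene, read 6.59, 5.99, 5.66 and 7.76 and had the largest SD of these, 0.92. Zbtb7a, a transcriptional repressor, read 7.62, 7.36, 6.48 and 5.75. Ciart, a repressor in the circadian loop, read 8.88, 8.79, 7.44 and 9.35. Replicate 3 was the lowest for Ciart and also for Dbp, which read 12.33, 12.08, 11.34 and 12.15. It was lowest too for Per2 (7.29), Per1 (6.95) and Nr1d1 (9.12), each also on a second detected probe. But Bhlhe40, another clock gene, read 6.41, 6.73, 7.46 and 7.40 and was lowest in replicate 1. Clock (8.18), Tef (7.74) and Rora (6.52) were lowest in replicate 4 on their brightest probes. The sources used here give no time of tissue collection. Bach1, a haem-sensing repressor, read 8.27, 7.84, 7.39 and 6.52. Depp1, a gene induced by FoxO factors and fasting, read 8.12, 9.79, 8.68 and 8.67, and Ush1c read 7.69, 7.22, 6.0 and 7.36. Rab5c, Cdk5rap1, Ndrg2, Cct8 and Ctsb completed the 12 with Car3, with SDs from 0.66 to 0.72.

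Genes known from fat tissue were lowest in the same heart. Adipoq, the adipocyte hormone adiponectin, read 5.66, 6.31, 6.80 and 7.12. Car3, a carbonic anhydrase abundant in fat and slow muscle, read 6.03, 7.12, 7.35 and 7.70, and Lep, the hormone leptin, read 6.0, 6.09, 6.61 and 6.62. Replicate 1 was the lowest for these 3 genes and for Hp, which fat tissue also makes. Of the other adipocyte markers, Lipe was also lowest in replicate 1 (5.77, 5.87, 6.32 and 6.24), and Ucp1 was detected in replicates 3 and 4 only. Pparg was lowest in replicate 4 (7.32, 7.38, 7.39 and 6.94), and Plin1, Cidec, Retn and Fabp4, on 0 arrays, gave no order. The part of fat tissue in these values was not tested.

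Within the stress and signalling genes, Egr1, an immediate early factor, read 7.72, 8.19, 8.20 and 8.95. Mef2a, a cardiac transcription factor, read 8.64, 7.99, 7.97 and 7.29 on 1 of its 3 probes. Npr2, the receptor of C-type natriuretic peptide, read 5.98, 6.53, 6.87 and 7.07. Timp4, the heart-enriched protease inhibitor, read 6.83, 7.57, 7.42 and 6.57, and Hsp90b1, a chaperone of the endoplasmic reticulum, read 8.33, 8.51, 9.31 and 8.79. Among immune genes detected on 4 arrays, the most variable was Cx3cr1, a macrophage receptor, with 6.55, 5.77, 6.12 and 6.02, an SD of 0.33 near the detection limit.

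**Figure D5:**
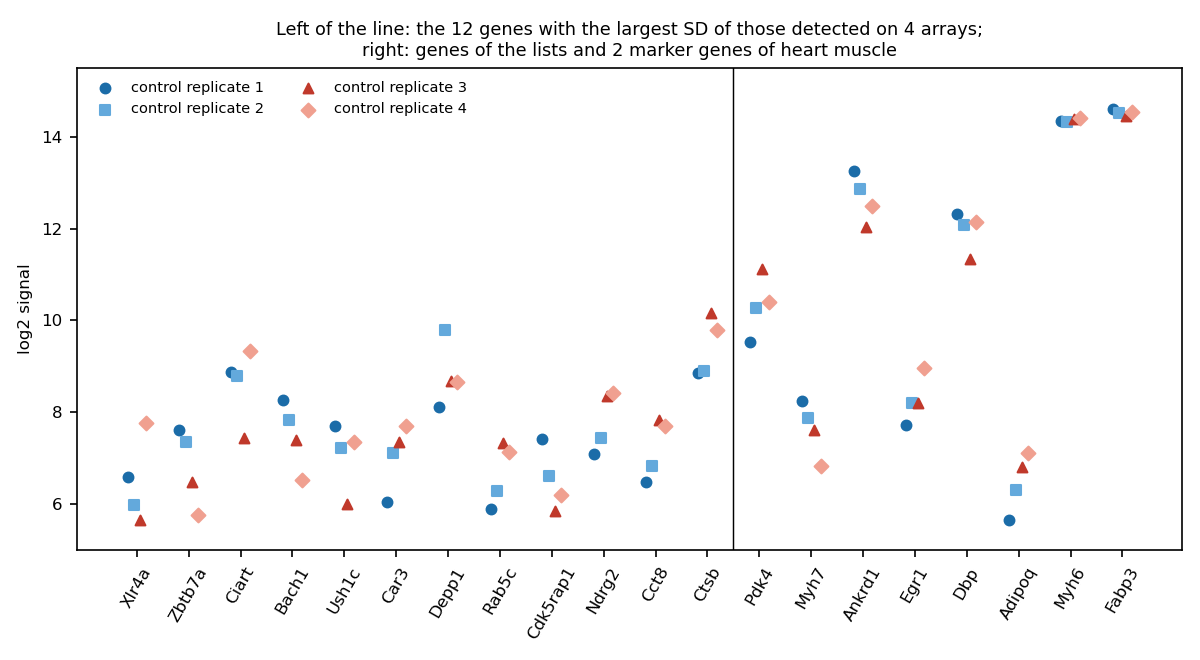
Log2 signal in each of 4 control hearts for the 12 genes with the largest SD among those detected on 4 arrays (left of the line) and for 6 variable list genes with Myh6 and Fabp3 (right of the line), coloured by replicate. Ciart and Dbp were lowest in replicate 3 and Adipoq in replicate 1, while Myh6 spread from 14.33 to 14.41.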

How the data were processed

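Total RNA from hearts had been taken up with a fibrous tissue kit, biotin-labelled and put on single-colour Illumina arrays, per the labels' protocols. The authors deposited 1 background-subtracted intensity per probe and array, with a detection p-value deposited beside each. BeadStudio and GenomeStudio are the tools in the submitters' processing notes. A second deposited table holds the same intensity values scaled by the authors, and served as an alternative.

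The intensities of all 16 arrays were corrected with nec (offset 16) of limma 3.58.1 in R 4.3.3, quantile normalized and then logged to base 2. Summaries over the 4 control arrays used pandas 2.3.3 in Python 3.11.15, and figures matplotlib 3.10.9. A probe counted as detected at p under 0.01. Of 25697 probes, 23978 had 1 gene symbol, 1719 are unnamed here and 23962 were matched to RefSeq (GRCm38.p6) by gene number. A gene stands by its brightest probe.

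No contrast was tested. The lists, members and isoform families were chosen with earlier results of these data known. Named are the marker genes, the 30 brightest genes, the members of contractile and metabolic lists, up to 4 genes of other lists with defining markers, and the most variable genes (12 in all, 6 per class of lists). The summaries were tested on simulated data. Precision is limited by having 4 arrays. Alternatives were other detection thresholds, background corrections, normalizations and probe rules, and leaving out each array.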

Additional observations from a re-analysis of the deposited data

Results flagged for a closer look

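For 332 named genes it was checked whether the highest or lowest of the 4 control arrays stood apart from the other 3, by a gap that took up more of the whole range than Dixon's 95% critical value for 4 samples. This held for 22 genes, and chance alone gives it for about 1 in 20 groups. The array that stood apart was higher for 11 genes and lower for 11. It was replicate 1 for 7 genes, replicate 2 for 3, replicate 3 for 4 and replicate 4 for 8. All values are log2 signals.

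Among contractile genes, Tnnc1 stood apart at 15.517 in replicate 1, against 15.456 in each other heart, a distance of neighbouring ranks at the top of the scale. Myom1 (11.29, others 11.608 to 11.648) and Cryab (11.581, others 11.675 to 11.686) were low in replicate 1. Mylk was high in replicate 4 (9.3386, others 8.6605 to 8.7285), and Smtn, another smooth muscle gene, was high in the same heart (11.75, others 11.354 to 11.397). Pdlim3 was high in replicate 3 (9.9538, others 9.5823 to 9.6305).

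Among metabolic genes, Acadl (9.1399), Got1 (7.0264) and Ak1 (7.9253) were low in replicate 1, where Uqcrc2 was high (14.276). Aldoa (11.693) and Pdk1 (6.7307) were low in replicate 4, where Dgat2 was high (11.972). Ckm was low in replicate 3 (12.944), where Sdhb was high (11.115), and Uqcrh was high in replicate 2 (14.238).

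Among other genes, Pparg (6.936) and Kcnj8 of the smooth muscle and pericyte list (7.3916) were low in replicate 4, where Cxcl14 was high (8.0024). In replicate 2, Ifit3 was low (7.1298) and Dnajb1, an inducible co-chaperone, was high (10.19, others 9.3264 to 9.4418). Tbx3, a factor of the conduction system, was high in replicate 3 (6.7585, others 5.9706 to 6.1003).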

How the results depend on the processing

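No paired analysis was possible because 1 group is described and no groups are compared. Detection counts stayed within 1.5 times the reported ones under both other thresholds. At p under 0.05 and 0.001 they were 8660 and 6472 probes on all control arrays, 13312 and 17566 probes on 0, 6377 and 4948 genes, and 487 and 427 listed genes. Leaving out each heart in turn gave 7754 to 7820 probes on all remaining arrays, 16055 to 16185 on 0, 5806 to 5843 genes and 467 to 474 listed genes. The B cell list had 1 gene on all arrays, in place of 0, without replicate 3 and at p under 0.05, where the T and NK cell list had 2 in place of 1, and the liver list had 1 without replicate 1. At 0.001 the adipocyte and the neuron and Schwann cell lists had 1 gene each in place of 4. The share of signal held by the 100 brightest genes (31.3%) was 32.1% with quantile normalization over the 4 controls alone, 32.1% with median scaling, 32.5% without further background correction, 28.7% with an offset of 50, 33.3% on the authors' scaled values and 34.8% with the median over the probes of a gene. Leaving out each heart gave 31.3% to 31.4%. The median SD over probes (0.162) was 0.192 with median scaling, 0.179 without further background correction, 0.137 with the offset of 50 and 0.180 on the authors' scaled values, and 0.145 to 0.161 without single hearts. The cause of these shifts was not tested. Of the 100 brightest genes, 100 were shared with each of the 5 other signal settings, 79 with the median over probes and 97 to 98 without single hearts. List medians moved by more than the spread between hearts in 34 of 49 lists with the offset of 50, 33 with the median over probes, 28 without further background correction, 26 on the authors' values, and 0 with the other normalizations. Means of named genes moved in 108 of 332 with the median over probes and in 27 to 68 under the other signal settings, and their SDs in 114 with median scaling. Dim genes and isoforms with 1 working probe are limited by signal over background.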
